A study of Homo sapiens with 12 samples.

Results

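The genes described here are 62 protein-coding genes of the short arm of human chromosome 6, taken in chromosomal order from SLC22A23 to HLA-F. They were found among 63677 genes in the count files, of which 8332 were protein-coding with a mean of at least 10 CPM, read counts scaled to the size of the library. The annotation placed 209 protein-coding genes in this window and the count files held 173 of them. KDM1B, 23 histone genes and HLA-F were left out by the rule, which left 148 candidates. A mean of at least 10 CPM over the 12 libraries kept 62 of these, while 86 were lower and 34 of those had no count in any library. The window was selected on measured values: its genes had been seen to be lower in one cell line than in the other in these same libraries. Levels of insR against WT cells are therefore given as a description, with no test. HLA-F was the last gene of the window. At the CPM limit, BTN3A1 (10.3 CPM) and SIRT5 (10.5 CPM) were just inside, and NRN1 (9.5 CPM) and CARMIL1 (8.27 CPM) just outside.

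RNA was measured in SET-2, an established human acute myeloid leukemia line. WT cells carried wild-type LSD1. The insR cells carried LSD1 with an arginine inserted between leucine 659 and asparagine 660, and their labels call them drug-resistant. Cells of both kinds were kept for 48 h with 0.1% (v/v) DMSO, the solvent, or with 250 nM GSK-LSD1, an irreversible inhibitor of LSD1, so every group had DMSO or drug and no group was left without either. This gave 4 groups of 3 libraries: WT DMSO, WT GSK-LSD1, insR DMSO and insR GSK-LSD1. The labels do not say whether the insR cells came from a single clone, nor how long they had been apart from the WT cells. The design text speaks of treatment in triplicate but not of separate cultures. A p-value here therefore covers the scatter of these libraries, which may be technical, and no more.

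LSD1 is a demethylase that removes methyl groups from histone H3 and works in repressor complexes that transcription factors such as GFI1 and GFI1B bring to DNA in blood cells. The short arm of chromosome 6 carries, from its end inwards, genes of many unrelated functions, then the major histone gene cluster with zinc finger and butyrophilin genes around it, and then the HLA region. SOX4, DEK and E2F3 lie near each other in this stretch. SOX4 is a transcription factor of blood progenitors, DEK a chromatin protein that is fused to NUP214 in some leukemias, and E2F3 a regulator of entry into S phase. The 62 genes do not form a pathway: what they share by construction is their position.

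Reads in genes numbered 4837096 to 10141155 per library, and 3 counts, the limit that a count of 0 allows, were worth 0.305 to 0.622 CPM. All levels below are CPM scaled by the trimmed mean of M values (TMM), and ± is the SD over 3 libraries. KDM1A, the gene of LSD1, was at 265 ± 26.5 CPM in WT DMSO, 217 ± 3.02 in WT GSK-LSD1, 109 ± 2.18 in insR DMSO and 106 ± 4.56 in treated insR cells, and gene counts cannot check for the insertion. Of 12 markers of the labelled cell type 11 were at 10 CPM or more, the exception being MPO, at under 1 CPM in all groups. The 9 markers of lymphoid, epithelial, stromal and endothelial cells summed to 1.07 to 2.65 CPM in WT and 5.19 to 10.7 CPM in insR libraries, the latter mostly CDH5 and COL1A1, while MS4A1, KRT19 and PECAM1 had 0 counts. Mitochondrial genes took 3.97% to 4.54% of reads in WT GSK-LSD1 against 2.93% to 3.55% in WT DMSO, and reads outside genes 18.4% to 19.5% against 16.3% to 16.7%. The part of these shares in the responses below was not tested.

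The promoters of 4 genes are printed as examples of the different patterns that follow, and they were picked after the values were seen. EEF1E1 and NOL7 were among the genes that fell in WT cells under the drug, RIPOR2 rose, and ID4 went against the rest of the window. EEF1E1 encodes a protein of the aminoacyl-tRNA synthetase complex, NOL7 a nucleolar protein, RIPOR2 an inhibitor of the small GTPase RhoA, and ID4 an inhibitor of helix-loop-helix transcription factors. Each window runs from 250 bases before to 50 after the gene start in RefSeq, build GRCh38.p14, and is written 5′ to 3′ along the gene's own strand. EEF1E1 lies at chr6:8102499-8102798 on the minus strand, NOL7 at chr6:13615085-13615384 on the plus strand, RIPOR2 at chr6:24935911-24936210 on the minus strand and ID4 at chr6:19837120-19837419 on the plus strand. Capitals mark exact matches, on either strand, to CCGGAAG (ETS), CCAAT (NF-Y), AAATCAC (GFI1), TTTCCCGC or TTTGGCGC (E2F) and TATAAA (the TATA box). Matches to GGGCGG (SP1) are not in capitals. None of the motifs searched holds another.
EEF1E1: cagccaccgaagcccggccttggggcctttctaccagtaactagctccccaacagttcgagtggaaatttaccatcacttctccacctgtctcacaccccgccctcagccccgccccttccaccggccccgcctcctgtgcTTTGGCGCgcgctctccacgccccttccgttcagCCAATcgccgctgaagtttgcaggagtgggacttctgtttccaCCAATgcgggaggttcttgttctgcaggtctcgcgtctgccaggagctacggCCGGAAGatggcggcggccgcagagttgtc
NOL7: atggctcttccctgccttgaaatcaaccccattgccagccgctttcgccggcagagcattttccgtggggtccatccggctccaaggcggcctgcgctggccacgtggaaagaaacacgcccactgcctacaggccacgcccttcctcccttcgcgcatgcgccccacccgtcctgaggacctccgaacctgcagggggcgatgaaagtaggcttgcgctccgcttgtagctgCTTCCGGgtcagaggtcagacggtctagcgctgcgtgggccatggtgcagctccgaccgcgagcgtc
RIPOR2: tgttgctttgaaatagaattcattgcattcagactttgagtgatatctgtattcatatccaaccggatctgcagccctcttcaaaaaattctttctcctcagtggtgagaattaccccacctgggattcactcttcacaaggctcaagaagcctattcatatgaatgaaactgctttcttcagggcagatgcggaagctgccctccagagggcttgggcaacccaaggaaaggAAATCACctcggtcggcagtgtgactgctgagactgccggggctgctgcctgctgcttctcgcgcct
ID4: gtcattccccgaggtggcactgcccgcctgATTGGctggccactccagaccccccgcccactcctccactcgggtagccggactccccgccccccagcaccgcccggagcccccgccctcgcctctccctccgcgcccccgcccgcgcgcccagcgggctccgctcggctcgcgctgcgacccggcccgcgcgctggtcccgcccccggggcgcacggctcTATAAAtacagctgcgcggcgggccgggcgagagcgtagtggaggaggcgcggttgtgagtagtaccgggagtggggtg

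The RefSeq table held a promoter for 56 of the 62 genes, and MBOAT1, TRIM27, HIVEP1, GFOD1, PRPF4B and BTN3A1 had no entry. The SP1 motif was present in 41 of the 56 windows (73.2%) against 45.0% of all 35116 promoters of the table. It occurred at 2 places in the window of EEF1E1 and at 6 in that of ID4, and in neither of the other promoters printed. The NF-Y motif was found in 19 (33.9%) against 34.6%, and the ETS motif in 8 (14.3%) against 10.3%. The GFI1 motif was found in 2 (3.57%), CDYL and RIPOR2, against 3.14%. A motif of GATA1 and related blood factors, AGATAA, was found in 1 (1.79%), BTN3A2, against 10.3%. An E2F motif was found in 3 (5.36%), EEF1E1, TPMT and E2F3 itself, against 2.27%, and the TATA box in 5 (8.93%) against 11.5%. The 2 sets are unlike: the 62 genes were chosen to be protein-coding at 10 CPM or more, as 8332 genes were. The 35116 promoters were not limited in that way. No share was computed for promoters of genes with a like level, so the differences are not evidence about the window. These are counts of letters, and a match is not evidence that a factor binds.

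In DMSO the insR libraries held close to 1 transcript of these genes for every 2 in WT libraries. Summed over the 62 genes, the level was 7040 to 7201 CPM in the 3 WT DMSO libraries and 3573 to 3720 CPM in the 3 insR DMSO libraries. The median log2 ratio of insR to WT was -1.005 (ratio 0.498) over the 62 genes and 0.00 over all 12864 genes tested. In 57 of the 62 genes all 3 insR libraries lay below all 3 WT libraries, a pattern found in 21.5% of all genes tested. Since this comparison chose the window, that excess is not evidence. The ratio fell between 0.4 and 0.6 for 38 genes, under 0.4 for 11, between 0.6 and 0.8 for 7 and at 0.8 or more for 6. The 3 insR DMSO libraries were alike in this: each had a median log2 ratio to the WT DMSO mean between -1.004 and -0.979. In bulk RNA, fewer cells that express a gene and less RNA per cell cannot be told apart, and the number of DNA copies of the region was not analysed here.

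**Figure D1:**
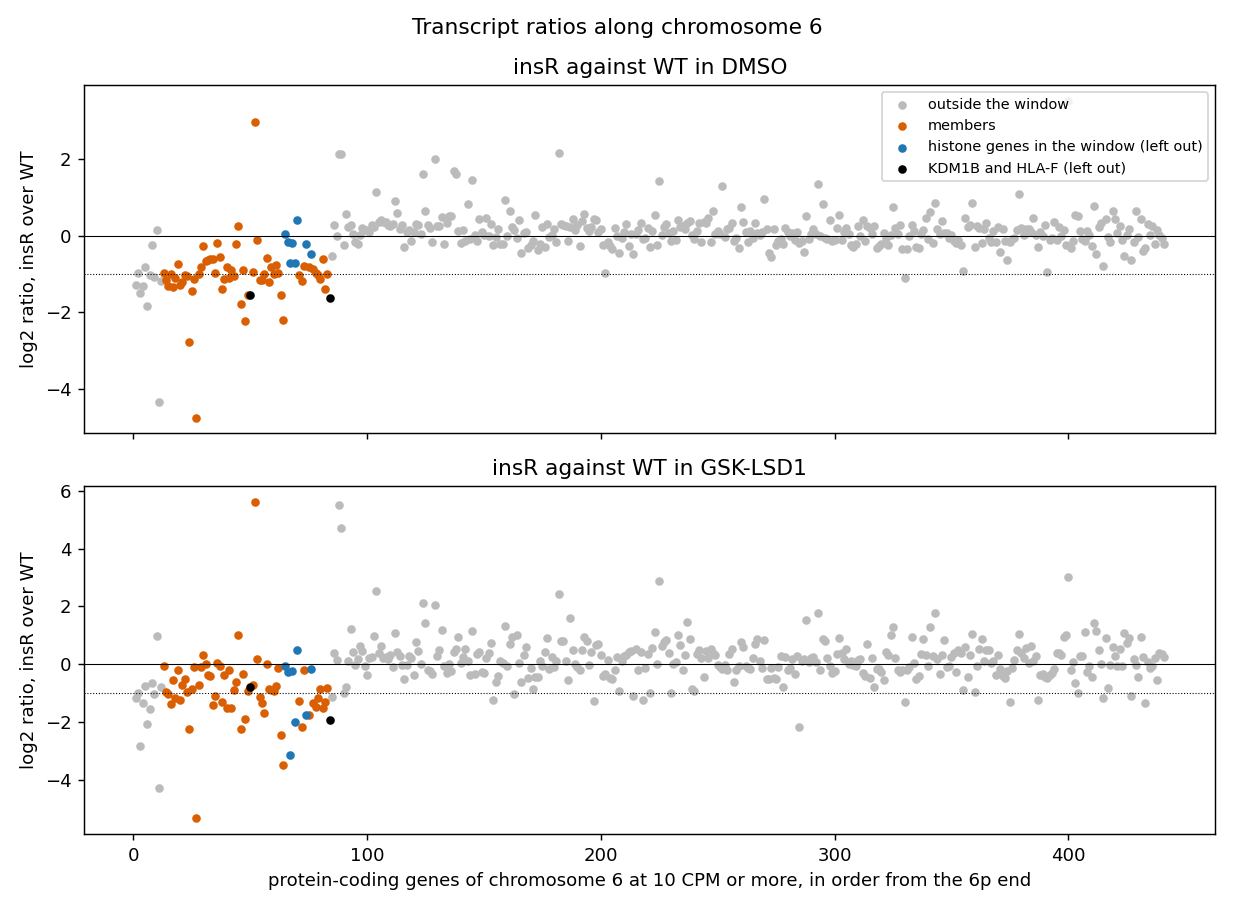
Log2 ratio of insR to WT (y axis) for each protein-coding gene of chromosome 6 at 10 CPM or more, in order from the 6p end (x axis), in DMSO (top) and GSK-LSD1 (bottom); the dotted line marks a ratio of 0.5. In DMSO the orange points, the 62 genes described, lie around the dotted line up to HLA-F, while genes after it have a median of 0.09.

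The lower level did not begin at SLC22A23. Before it, 12 genes of at least 10 CPM reach to the chromosome end, and their median log2 ratio in DMSO was -1.14, with all insR libraries below all WT libraries in 11 of them. The nearest of these, PSMG4, a proteasome assembly chaperone, was at 45.6, 48.8 and 50.7 CPM in WT DMSO and 23.6, 19.96 and 19.5 in insR DMSO (log2 ratio -1.19). Its neighbour TUBB2B, a beta-tubulin, was at 202 against 9.95 CPM (-4.34). TUBB2A, a near-identical tubulin gene named here after its values were seen, was the exception at 24.6 against 27.1 CPM, and reads of the pair may be split between them. The other end was sharper. HLA-F, the last gene of the window, had a log2 ratio of -1.63 and POLR1H, a subunit of RNA polymerase I that lies beyond it, 0.27. The first 12 genes after HLA-F had a median of 0.12 and all 357 after it a median of 0.09. Over the other chromosomes, medians of genes at 10 CPM or more ran from -0.08 to 0.08, except chromosome 13 at -0.73. Whole-chromosome medians can hide lower stretches: lower quartiles were -0.42 on chromosome 17 and -0.40 on chromosome 11, against -0.25 or more on the others apart from chromosome 13 (-1.02). Chromosome 17 held 72 genes with a ratio between 0.4 and 0.6, so a ratio near that of the window was also found elsewhere.

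Along the window the level was lower throughout. Split into 6 runs of 10 or 11 neighbours, the 62 genes had median log2 ratios of -1.09, -0.81, -0.93, -1.05, -0.99 and -0.99 in DMSO. The genes that the rule left out were not all alike. The 21 tested genes of the window under 10 CPM had a median of -1.08, near that of the 62. The 8 histone genes at 10 CPM or more had a median of -0.21, and all insR libraries were below all WT libraries in 2 of them. The sum of these 8 genes was 2785 ± 283 CPM in WT DMSO and 2584 ± 305 in insR DMSO. KDM1B, an LSD1 relative that also removes methyl groups from histone H3, was at 35.5, 39.5 and 43.8 CPM in WT DMSO and 12.8, 13.9 and 14.1 in insR DMSO, a log2 ratio of -1.55. Most histone transcripts of this cluster lack a poly(A) tail, so that libraries made from polyadenylated RNA hold only part of them.

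Transcription factors and chromatin proteins gave the most abundant transcripts of the window. SOX4 was at 1722, 1615 and 1564 CPM in WT DMSO and at 905, 839.8 and 725 in insR DMSO. Every insR library was below every WT library, and the log2 ratio was -0.99 (SE 0.09). SOX4 alone made up much of the total: the 62 genes took 0.717% ± 0.0074 of reads in genes in WT DMSO and 0.356% ± 0.005 in insR DMSO, and 0.552% ± 0.0076 and 0.276% ± 0.0036 without SOX4. DEK was at 859, 897 and 828 CPM in WT DMSO and 453, 431 and 455 in insR DMSO. JARID2, a cofactor of the Polycomb complex PRC2, was at 439, 479.6 and 522 CPM and at 253, 245 and 269. E2F3 was at 180.3, 185 and 208 CPM and at 76.02, 78.7 and 102. The groups did not overlap for any of these 3 genes, and their log2 ratios, -0.95, -0.91 and -1.16, lay close to that of SOX4.

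**Figure D2:**
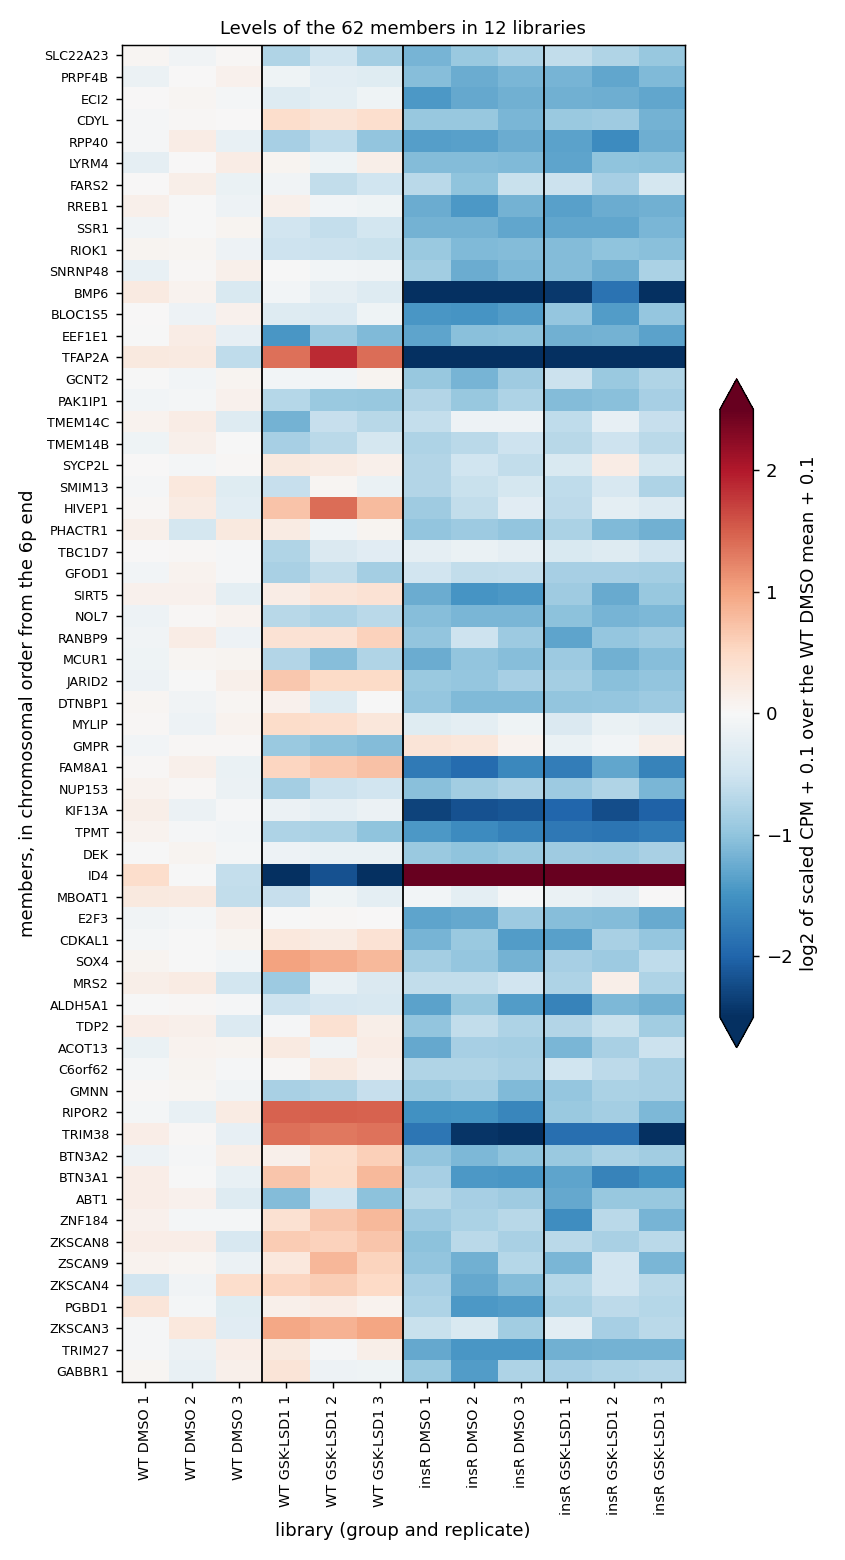
Levels of the 62 genes (rows, in chromosomal order) in the 12 libraries (columns), as the log2 ratio of CPM plus 0.1 to the WT DMSO mean plus 0.1; blue is lower and red higher. Blue fills the 6 insR columns except in a few rows such as ID4 and GMPR, and the WT GSK-LSD1 columns hold both colours.

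The 8 genes with the lowest log2 ratios form no separate group, since TRIM27 (-1.38) and SIRT5 (-1.38) follow close on the last of them. TFAP2A, the transcription factor AP-2 alpha, was at 15.3, 14.9 and 8.22 CPM in WT DMSO and at 0.305, 0.825 and 0.351 in insR DMSO, with 10 counts in the 3 insR libraries together. The ratio of WT to insR summed counts, scaled to library size, was 28.1 (95% counting interval 15.01 to 59.3). TFAP2A passed the limit of 10 CPM over the 12 libraries only through WT GSK-LSD1, where its mean was 37.9 CPM. BMP6, a secreted bone morphogenetic protein that regulates iron balance, was at 25.6, 23.3 and 16.8 CPM in WT DMSO and 3.05, 3.46 and 3.16 in insR DMSO. KIF13A, a kinesin motor of endosomes, was at 238, 194 and 209 CPM and at 43.1, 47.3 and 48.2. No insR library came near a WT library for these genes. TRIM38, a ubiquitin ligase of innate immune signalling, was at 27.04, 24.4 and 20.7 CPM in WT DMSO and 6.81, 4.29 and 3.87 in insR DMSO. FAM8A1, a protein of the degradation machinery of the endoplasmic reticulum, was at 33.9 ± 3.33 and 9.95 ± 1.08 CPM. TPMT, which methylates thiopurine drugs, was at 41.2 ± 2.51 and 13.9 ± 1.24 CPM. These were the largest gaps after TFAP2A, with log2 ratios of -2.77 for BMP6, -2.21 for KIF13A, -2.20 for TRIM38, -1.77 for FAM8A1 and -1.56 for TPMT. RIPOR2 was at 34.6, 31.4 and 41.3 CPM in WT DMSO and 12.5, 12.5 and 11.4 in insR DMSO (log2 ratio -1.54). BLOC1S5, a subunit of the BLOC-1 complex of lysosome-related organelles, was at 26.8 ± 2.14 and 9.8 ± 0.339 CPM (-1.45). It shares annotated read-through transcripts with its neighbours EEF1E1 and TXNDC5, so reads of BLOC1S5 may be uncertain.

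At the other extreme, 2 genes were higher in every insR library than in every WT library. Over all 12864 genes tested, 2683 had that pattern in DMSO. ID4 was at 15.8, 11.5 and 7.68 CPM in WT DMSO and 90.2, 98.5 and 82.1 in insR DMSO, a log2 ratio of 2.95 (SE 0.18). Every insR library lay far above every WT library. ID4 passed the limit of 10 CPM over the 12 libraries only through its insR libraries. GMPR, a reductase of guanosine monophosphate, was at 34.2, 36.6 and 36.8 CPM and 45.02, 43.7 and 38.1. The gap between the GMPR groups was small, with a log2 ratio of 0.24. Groups overlapped in DMSO for MBOAT1, a lysophospholipid acyltransferase, for MYLIP, a ubiquitin ligase of the LDL receptor, and for TMEM14C, a mitochondrial protein needed for heme synthesis. MBOAT1 was at 50.2, 49.3 and 27.5 CPM in WT DMSO and 40.6, 35.6 and 40.8 in insR DMSO, and its WT replicate 3 was lower than the other libraries. MYLIP was at 28.9 ± 2.08 and 24.8 ± 1.73 CPM. TMEM14C was at 117, 126 and 87.9 CPM in WT DMSO and 73.4, 100.5 and 100.5 in insR DMSO, with a WT library inside the insR range. TBC1D7, a subunit of the TSC complex that restrains mTORC1, was slightly lower in insR cells, at 46.5 ± 0.784 against 40.4 ± 1.13 CPM.

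**Figure D3:**
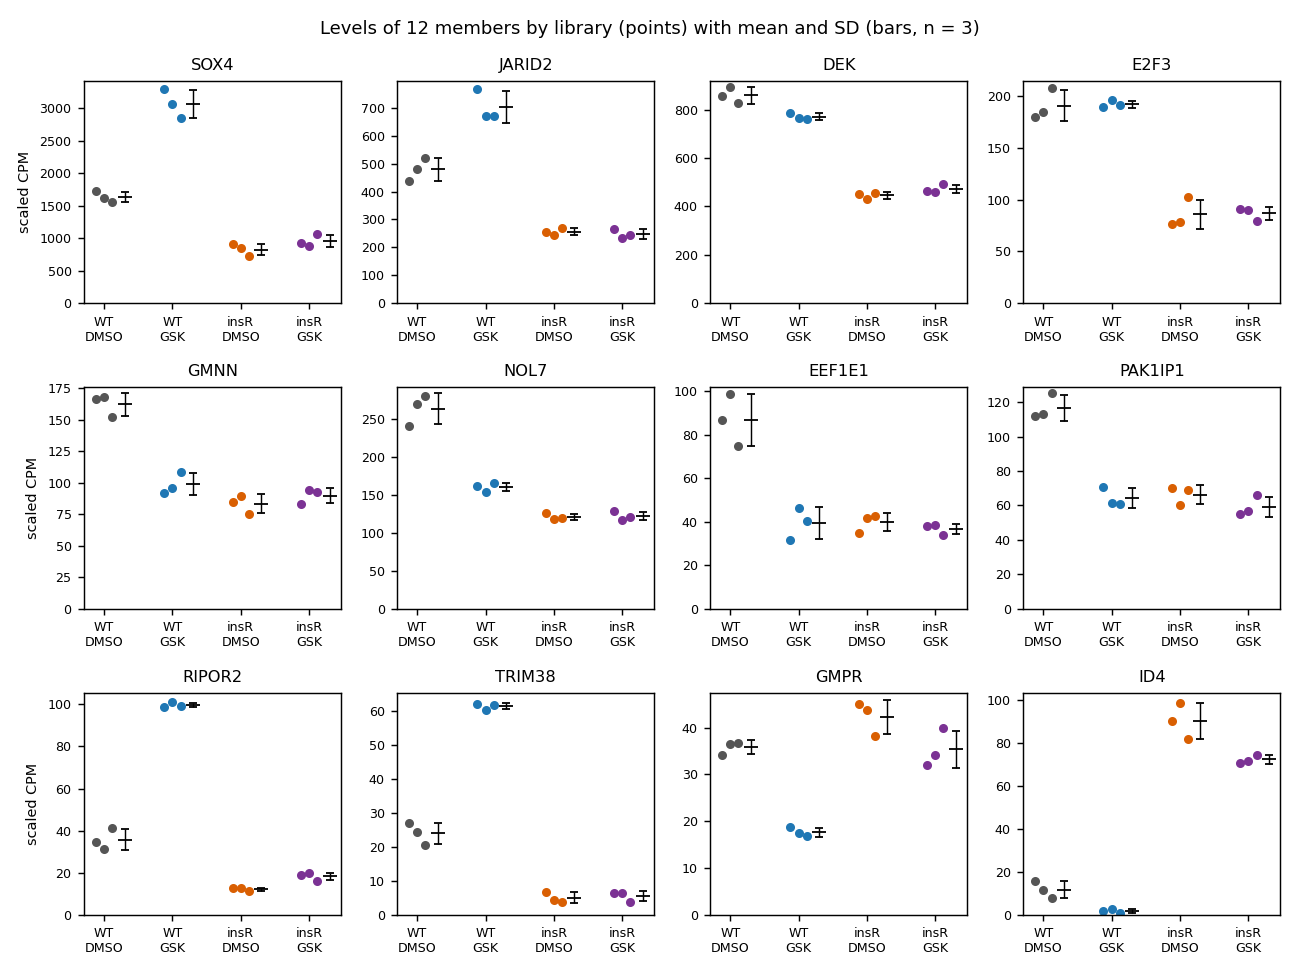
Scaled CPM (y axis, from 0) of 12 genes in each library (points) with the mean and SD of each group of 3 (bars); GSK stands for GSK-LSD1. SOX4, JARID2, RIPOR2 and TRIM38 are higher in WT GSK-LSD1 than in the other groups, NOL7, EEF1E1, PAK1IP1 and GMNN are highest in WT DMSO, and ID4 is high only in the 6 insR libraries.

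The second comparison asked how the window responded to GSK-LSD1 in WT cells. It was tested in edgeR over all 12864 genes with Benjamini-Hochberg adjustment, and genes are called below an adjusted p of 0.05. It shares the WT DMSO libraries with the comparison that chose the window. Of the 62 genes, 17 rose, 21 fell and 24 did not pass. Over all genes tested 22.7% were called higher and 22.5% lower, and over the 8332 protein-coding genes at 10 CPM or more, the more similar set, 22.2% and 29.6%. The median log2 change was -0.04 for the 62 genes, 0.01 over all genes and -0.06 over the 8332, and with upper-quartile scaling that of the 62 genes changed sign, to 0.01. Changes in WT cells thus ran both ways across the window. Because the minimum of 10 CPM counts the WT GSK-LSD1 libraries too, low genes that rise there pass it more easily. The summed level was 7881 to 8392 CPM in WT GSK-LSD1, above the WT DMSO range, and without SOX4 the share of reads was lower, 0.513% ± 0.0058 against 0.552% ± 0.0076.

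Among the 13 genes of transcription and chromatin, 6 rose, 3 fell and 4 did not pass. Of protein-coding genes at 10 CPM or more, 22.2% were called higher and 29.6% lower. SOX4 went from 1722, 1615 and 1564 CPM in WT DMSO to 3295, 3066 and 2853 in WT GSK-LSD1, with a log2 change of 0.91 (SE 0.09, adjusted p = 1.38e-08). JARID2 went from 480.2 CPM to 770.3, 670.1 and 670.4, a change of 0.55 (SE 0.08, adjusted p = 7.63e-06). In both genes all treated libraries exceeded all DMSO libraries. TFAP2A rose to 33.5, 46.7 and 33.7 CPM in WT GSK-LSD1, with a log2 change of 1.55 (SE 0.27, adjusted p = 0.000204). It passed the limit of 10 CPM over the 12 libraries only through these WT GSK-LSD1 libraries, so its place in the count of rises depends on that limit. HIVEP1, a zinc finger factor that binds NF-kB-like sites, rose from 12.2 ± 1.95 to 24.6 ± 6.77 CPM (log2 change 0.99, adjusted p = 0.00021). CDYL, a chromodomain corepressor, also rose (log2 change 0.40, adjusted p = 0.000786), as did FAM8A1 (log2 change 0.65, adjusted p = 0.000146), which stands in this list although its known role is in protein degradation. DEK was at 788, 769 and 763 CPM and E2F3 at 189.6, 196 and 191 in WT GSK-LSD1, and neither passed, with adjusted p = 0.0733 for DEK and 0.94 for E2F3. The 3 that fell were ID4, NOL7 and ABT1, the last of which activates basal transcription and sits in the nucleolus.

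ID4 showed the largest change of the window. From 15.8, 11.5 and 7.68 CPM in WT DMSO it went to 1.7, 2.5 and 0.713 in WT GSK-LSD1, where the 3 libraries together held 29 counts, and the log2 change was -2.996 (SE 0.32, adjusted p = 5.28e-07). In its promoter, printed above, the TATA box begins 29 bases before the gene start. RIPOR2 stood at the other side, going from 34.6, 31.4 and 41.3 CPM to 98.9, 101 and 99.5, with a log2 change of 1.49 (SE 0.11, adjusted p = 7.49e-11). Its treated libraries were tightly grouped and all far above the DMSO libraries. Its promoter holds a GFI1 motif 17 bases before the start and none of the other motifs searched.

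Of 12 genes of RNA processing, ribosome assembly and protein synthesis, 10 fell, none rose and 2 did not pass, against 22.5% of all genes tested and 29.6% of protein-coding genes at 10 CPM or more called lower. Those that did not pass were CDKAL1, a tRNA-modifying enzyme, with a log2 change of 0.29, and SNRNP48, a protein of the minor spliceosome, with -0.06. The list was drawn up with earlier results of these data known, so its count is not independent evidence of a direction, and some of its genes belong to other lists too. EEF1E1 went from 86.5, 98.5 and 74.8 CPM in WT DMSO to 31.6, 46.3 and 40.2 in WT GSK-LSD1, a log2 change of -1.14 (SE 0.13, adjusted p = 1.03e-07). NOL7 went from 241, 269 and 280.1 CPM to 162, 154 and 165, a change of -0.72 (SE 0.08, adjusted p = 7.49e-08). PAK1IP1, a factor of large ribosomal subunit assembly, went from 112, 113 and 125 CPM to 70.9, 61.4 and 60.7, a change of -0.86 (SE 0.10, adjusted p = 1.3e-07). For these 3 genes every treated library lay below every DMSO library. ABT1 fell from 118 ± 20.4 to 65.6 ± 16.1 CPM (log2 change -0.85, adjusted p = 0.000456) and RPP40, a subunit of ribonuclease P, from 53.9 ± 7.29 to 30.7 ± 3.82 CPM (log2 change -0.83, adjusted p = 9.49e-06). SSR1, of the translocon-associated protein complex, and RIOK1, a kinase of small ribosomal subunit maturation, fell by less, with log2 changes of -0.51 (adjusted p = 8.84e-06) and -0.54 (adjusted p = 2.05e-05). The smallest fall, of PRPF4B, a kinase of pre-mRNA splicing, had a log2 change of -0.22 (adjusted p = 0.0337). It was lost with upper-quartile scaling (adjusted p = 0.0997), with only the WT groups in the fit (0.0587) and without replicate 2 or 3 of either WT group (0.0729 to 0.138).

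Of the 17 genes of mitochondria and metabolism, 9 fell, none rose and 8 did not pass. Called lower were 22.5% of all genes tested and 29.6% of protein-coding genes at 10 CPM or more. This list too was drawn up with earlier results known, and its FARS2 and RIOK1 were already counted among the falls above. GMPR went from 34.2, 36.6 and 36.8 CPM to 18.7, 17.5 and 16.8 in WT GSK-LSD1, a log2 change of -1.03 (SE 0.12, adjusted p = 3.45e-07). MCUR1, a regulator of the mitochondrial calcium uniporter, went from 100.1, 111 and 113 CPM to 65.04, 51.5 and 64.2, a change of -0.84 (SE 0.11, adjusted p = 6.37e-07). TMEM14C went from 117, 126 and 87.9 CPM to 48.2, 74.1 and 68.2, a change of -0.79 (SE 0.20, adjusted p = 0.00662). Treated libraries were below all DMSO libraries in each of the 3 genes, with the widest scatter in TMEM14C. TPMT fell from 41.2 ± 2.51 to 22.8 ± 2.05 CPM (log2 change -0.86, adjusted p = 4.31e-06). SLC22A23, an orphan member of the organic ion transporter family, fell from 25.1 ± 1.27 to 15.6 ± 2.07 CPM (log2 change -0.70, adjusted p = 0.000497). TMEM14B, a relative of TMEM14C with which it may share reads, fell by less (log2 change -0.64, adjusted p = 3.13e-05), and ALDH5A1, succinic semialdehyde dehydrogenase, fell likewise (log2 change -0.45, adjusted p = 0.00445). FARS2, the mitochondrial phenylalanyl-tRNA synthetase, fell (log2 change -0.40, adjusted p = 0.0269), but the call was lost with upper-quartile scaling (adjusted p = 0.0511), without WT DMSO replicate 1 or 2 (0.0513 and 0.116) and without WT GSK-LSD1 replicate 2 or 3 (0.105 and 0.123). The last of the 9 was RIOK1, described above, which is not primarily a metabolic gene. ECI2, an enoyl-CoA isomerase, was at 112 and 96.3 CPM and did not pass (adjusted p = 0.0505).

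Of 9 genes of the cell cycle and replication, 4 fell and 5 did not pass. Called lower were 22.5% of all genes tested and 29.6% of protein-coding genes at 10 CPM or more. GMNN, the replication licensing inhibitor geminin, went from 166, 168 and 152 CPM in WT DMSO to 91.9, 96.0 and 109 in WT GSK-LSD1, a log2 change of -0.71 (SE 0.09, adjusted p = 7.34e-07). NUP153, a nuclear pore protein, fell from 82.8 ± 6.86 to 54.2 ± 7.06 CPM (log2 change -0.61, adjusted p = 0.000126). PRPF4B and RIOK1, which also fell, are given above. KIF13A was at 214 ± 22.3 and 189 ± 5.98 CPM and did not pass (adjusted p = 0.105), nor did E2F3 or DEK.

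Of 4 genes listed as immune, adhesion and iron genes 3 rose and 1 did not pass. Of 5 zinc finger genes 5 rose. Called higher were 22.7% of all genes tested and 22.2% of protein-coding genes at 10 CPM or more. These short lists were drawn up in the same way. The minimum of 10 CPM counts the WT GSK-LSD1 libraries too, so low genes that rise there pass it more easily. BTN3A1 and ZKSCAN3, for example, passed only through those libraries. The counts of rises in these 2 lists are therefore not independent evidence of a direction. TRIM38 went from 27.04, 24.4 and 20.7 CPM in WT DMSO to 62.2, 60.5 and 62.01 in WT GSK-LSD1, a log2 change of 1.35 (SE 0.15, adjusted p = 9.97e-08). BTN3A1, a butyrophilin that gamma delta T cells read out, went from 13.7, 12.1 and 10.7 CPM to 19.7, 16.7 and 21.4, a change of 0.67 (SE 0.18, adjusted p = 0.00418). BTN3A2, a near copy that may share its reads, rose by less (log2 change 0.42, adjusted p = 0.0213). The call of BTN3A2 was lost with no filter on low counts (adjusted p = 0.0605), without WT DMSO replicate 1 or 2 (0.101 and 0.0784) and without WT GSK-LSD1 replicate 2 or 3 (0.0525 and 0.172). GABBR1, a GABA-B receptor subunit, was at 32.9 ± 3.64 and 34.1 ± 6.17 CPM and did not pass. ZKSCAN3, a zinc finger repressor of autophagy genes, went from 10.2, 12.5 and 8.57 CPM to 20.4, 19.01 and 20.8, a change of 0.94 (SE 0.18, adjusted p = 0.000182). ZNF184 rose from 16.3 ± 1.07 to 25.3 ± 3.83 CPM (log2 change 0.65, adjusted p = 0.00299) and ZKSCAN8 from 12.4 ± 2.66 to 19.3 ± 0.865 CPM (log2 change 0.64, adjusted p = 0.004). ZSCAN9 (log2 change 0.57, adjusted p = 0.0115) was lost without WT GSK-LSD1 replicate 2 (0.0811), and ZKSCAN4 (log2 change 0.56, adjusted p = 0.0159) without WT DMSO replicate 1 or 2 (0.134 and 0.0734).

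Of 14 genes of ubiquitin transfer, trafficking and signalling, 4 rose, 2 fell and 8 did not pass. The shares over protein-coding genes at 10 CPM or more were 22.2% called higher and 29.6% lower. RIPOR2 and TRIM38, described above, rose most. MYLIP rose from 28.9 ± 2.08 to 37.7 ± 2.43 CPM (log2 change 0.38, adjusted p = 0.01), and the call was lost without WT DMSO replicate 2 (adjusted p = 0.07). RANBP9, a scaffold of the CTLH ubiquitin ligase, rose (log2 change 0.44, adjusted p = 0.021), and this was lost without WT DMSO replicate 1 or 3 (0.0846 and 0.0715) or WT GSK-LSD1 replicate 3 (0.122). GFOD1, a protein with an oxidoreductase domain, fell from 65.3 ± 3.58 to 38.7 ± 3.32 CPM (log2 change -0.76, adjusted p = 1.27e-06) and TBC1D7 from 46.5 ± 0.784 to 33.9 ± 5.67 CPM (log2 change -0.45, adjusted p = 0.00275). TRIM27, a ubiquitin ligase, was at 109.9 ± 11.6 and 119.7 ± 11.4 CPM and did not pass, and neither did C6orf62, at 155 ± 6.02 and 169 ± 11.1 CPM. SYCP2L and PGBD1, which stood in no list, did not pass.

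**Figure D4:**
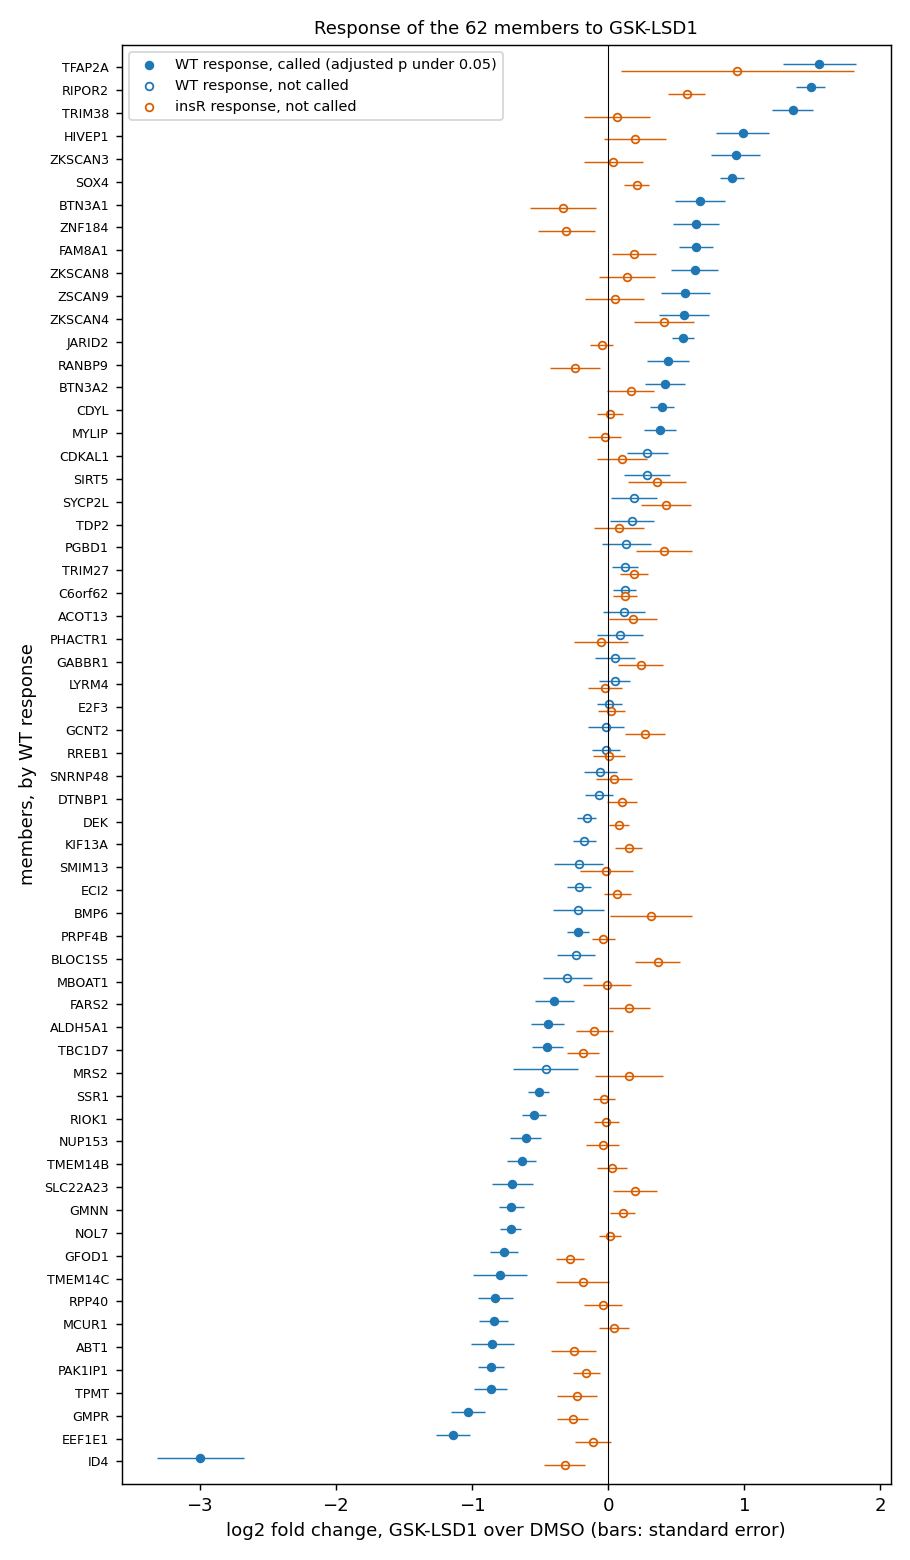
Log2 change under GSK-LSD1 with its standard error (x axis) for the 62 genes, ordered by their change in WT cells (y axis); blue is WT, orange is insR, and filled points are called. The 17 filled points at the top rose and the 21 towards the bottom fell, while no insR point is filled.

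The third comparison asked the same of insR cells. By edgeR none of the 62 genes was called under GSK-LSD1 in insR cells, against 0.505% of all genes tested. An unadjusted p under 0.05 was found in 6 of the 62. The same held for 996 of all 12864 genes tested and 663 of the 8332 protein-coding genes at 10 CPM or more, so the 6 are near the general share. The median log2 change was 0.04 and the range -0.33 to 0.95. RIPOR2 came closest, at 12.5, 12.5 and 11.4 CPM in insR DMSO and 18.9, 19.7 and 16.3 in insR GSK-LSD1, a log2 change of 0.58 (SE 0.14, adjusted p = 0.0561). All 3 treated libraries were above all 3 DMSO libraries. RIPOR2 was called by DESeq2 (adjusted p = 0.0497) and with no filter beyond 1 count (adjusted p = 0.0415), while limma-voom called none of the 62. SOX4 was at 905, 839.8 and 725 CPM and 923, 875 and 1059, and a treated library lay inside the DMSO range (adjusted p = 0.538). ID4 was at 90.2, 98.5 and 82.1 CPM in insR DMSO and 70.9, 71.6 and 74.6 in insR GSK-LSD1, with a log2 change of -0.32 (SE 0.15, adjusted p = 0.65). Its treated libraries were all below the DMSO libraries, and the change did not pass. TFAP2A, with 16 counts in the treated insR libraries together, had the largest change but also the largest standard error (log2 change 0.95, SE 0.85, adjusted p = 0.9). DEK, at 464, 459.7 and 492 CPM, E2F3, at 90.7, 90.02 and 79.6, and NOL7, at 129, 117 and 120.3, did not pass in treated insR cells.

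The fourth comparison tested the difference between the 2 responses, as an interaction term in edgeR. It was called for 25 of the 62 genes: in 16 the insR response was the more positive and in 9 the more negative. Over all genes tested these shares were 13.3% and 11.8%, and over protein-coding genes at 10 CPM or more 18.2% and 12.9%. The median difference was 0.20 on the log2 scale for the 62 genes and 0.00 for all genes. The 16 were ID4, EEF1E1, SLC22A23, MCUR1, GMNN, RPP40, GMPR, NOL7, PAK1IP1, TMEM14B, TPMT, BLOC1S5, NUP153, RIOK1, GFOD1 and SSR1, and all but BLOC1S5 were genes that fell in WT cells, a response measured on the same WT libraries. ID4 had the largest difference, 2.68 (SE 0.36, adjusted p = 3.25e-05). EEF1E1 followed at 1.03 (SE 0.18, adjusted p = 0.00021), then SLC22A23 at 0.90 (SE 0.22, adjusted p = 0.00387), MCUR1 at 0.88 (SE 0.15, adjusted p = 0.000154) and GMNN at 0.82 (SE 0.13, adjusted p = 5.25e-05). In GMNN the WT mean went from 162 to 98.8 CPM while the insR mean went from 83.3 to 89.8. In SLC22A23 the insR libraries were at 11.2, 13.2 and 14.6 CPM in DMSO and 16.3, 14.9 and 13.01 under the drug, which overlap.

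The 9 with a more negative insR response were TRIM38, BTN3A1, ZNF184, RIPOR2, ZKSCAN3, SOX4, RANBP9, JARID2 and CDYL, all of which rose in WT cells. TRIM38 had the largest difference, -1.29 (SE 0.28, adjusted p = 0.00156), and stayed at 6.45, 6.43 and 3.72 CPM in treated insR cells. The difference was -1.004 (SE 0.30, adjusted p = 0.0177) for BTN3A1, -0.95 (SE 0.27, adjusted p = 0.0105) for ZNF184, -0.91 (SE 0.18, adjusted p = 0.000463) for RIPOR2 and -0.90 (SE 0.28, adjusted p = 0.0218) for ZKSCAN3. SOX4 (difference -0.70, adjusted p = 0.000235) and JARID2 (difference -0.60, adjusted p = 0.000561) were the most abundant of the 9. Of the 25 calls, 17 were kept under all 18 other fits at an adjusted p under 0.05. The call of BTN3A1 was lost without WT GSK-LSD1 replicate 3 (adjusted p = 0.0516) or insR DMSO replicate 1 (0.123). That of ZKSCAN3 was lost without replicate 1 or 2 of insR DMSO, replicate 2 or 3 of insR GSK-LSD1, or WT DMSO replicate 3 (adjusted p 0.05 to 0.0663). TFAP2A and HIVEP1 rose in WT cells, and their differences, -0.60 (SE 0.99, adjusted p = 0.709) and -0.79 (SE 0.30, adjusted p = 0.055), did not pass.

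Under GSK-LSD1 the insR and WT levels stood as follows, with no test. The median log2 ratio of insR to WT was -0.89 (ratio 0.538) over the 62 genes and -0.01 over all genes tested. All insR libraries were below all WT libraries in 44 genes and above them in 2, ID4 and GMPR, and the groups overlapped in 16. Over all 12864 genes tested the first pattern was found in 30.4%, and the second in 3819 genes. This comparison shares its WT libraries with the WT response, so the values below are not independent of it. For the 21 genes that fell in WT cells the median log2 ratio was -0.96 in DMSO and -0.19 under the drug, and for the 17 that rose it was -0.99 and -1.51. For the 24 not called it was -1.06 and -0.92. EEF1E1, at 31.6, 46.3 and 40.2 CPM in WT GSK-LSD1 and 37.9, 38.4 and 34.1 in insR GSK-LSD1, overlapped. GMNN, at 91.9, 96.0 and 109 and 82.8, 94.2 and 92.5 CPM, overlapped as well, and so did PAK1IP1, at 70.9, 61.4 and 60.7 and 55.3, 56.8 and 65.97 CPM. TRIM38, with a log2 ratio of -3.49, and RIPOR2, with -2.45, were further apart under the drug than in DMSO. ID4 had a log2 ratio of 5.63, and GMPR, at 18.7, 17.5 and 16.8 CPM in WT and 32.1, 34.2 and 39.8 in insR cells, one of 1.01.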

How the data were processed

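RNA of 12 SET-2 libraries was made into libraries of transcript 3' ends, of the QuantSeq forward type per the labels, so that counts do not scale with gene length. The submitters' processing notes name bcl2fastq 2.2, STAR 2.6.0c, HTSeq 0.9.1, DESeq2 and the build hg19. For the counting, neither annotation release nor strand setting is given in the sources used here. The deposited files hold whole read counts per gene with no normalization. A deposited table of normalized signal was not used. Entries that name no gene, 65.7% to 69.1% of the table totals, were left out of library sizes and tests.

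Gene order, names and types came from GENCODE 29, which is on a later build than hg19. Its gene starts and ends served only for that order and for overlaps. Overlaps were sought with protein-coding, antisense, lincRNA and processed-transcript genes. In that annotation 39 of the 62 genes overlap another gene, 34 of them on the opposite strand, and their counts are uncertain to that extent. Membership used unscaled CPM. Tests used edgeR 4.0.16 in R 4.3.3: TMM scaling, filterByExpr, which all 62 genes passed, and the robust quasi-likelihood test on all 12 libraries, with Benjamini-Hochberg adjustment over 12864 genes and calls below 0.05. The fit was tested on simulated counts. Replicates differed beyond sampling noise, with chi-square per degree of freedom of 2.90 to 7.77 between libraries of a group. Depth was 4837096 to 10141155 reads in genes. Intervals and the limit of 3 counts cover counting error only.

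The genes, the role lists and the tests were chosen with earlier results of these data known. Named genes were the 8 lowest and 5 highest in insR against WT in DMSO, up to 10 called per direction in the WT response, all called or the 5 largest per direction in the others, and the 4 most abundant of each role list. Genes lost under an alternative were added after their values were seen. Alternatives were other scalings, no filter beyond 1 count, DESeq2 1.42.0, limma-voom (limma 3.58.1), a replicate block, a fit on only the groups compared, an adjusted p under 0.01, minimums of 5 and 20 CPM, and each library left out in turn. Python 3.11.15 with pandas 2.3.3, numpy 2.4.6, scipy 1.17.1 and matplotlib 3.10.9 served for tables and plots.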

Additional observations from a re-analysis of the deposited data

Results flagged for a closer look

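The difference between the insR and WT responses to GSK-LSD1 was called by edgeR's interaction test for 25 of the 62 genes, and these are listed because the same drug gave different changes in the 2 cell lines. In 16 genes the insR response was the more positive and in 9 the more negative. The largest log2 differences were 2.68 for ID4, 1.03 for EEF1E1, 0.90 for SLC22A23, 0.88 for MCUR1 and 0.82 for GMNN. In the other direction they were -1.29 for TRIM38, -1.004 for BTN3A1, -0.95 for ZNF184, -0.91 for RIPOR2 and -0.90 for ZKSCAN3. No group has the 4 libraries needed to look for a single library that stands apart.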

How the results depend on the processing

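No named gene's called change and no median ratio of insR to WT changed sign under the alternatives run. The median WT change of the 62 genes did, from -0.04 to 0.01 with upper-quartile scaling. The WT response was called for 38 of the 62 genes and 31 of these were kept under all 13 other fits at an adjusted p under 0.05. For the difference in response 17 of 25 were kept under all 18. At an adjusted p under 0.01, 31 and 16 were called. Calls lost elsewhere in the text's lists were those of the difference in response for CDYL, BLOC1S5, GFOD1, RANBP9, NUP153 and TPMT. BLOC1S5 was lost with upper-quartile scaling (adjusted p = 0.0604), no filter (0.0835), DESeq2 (0.0704), limma-voom (0.0529) and without 9 of the libraries in turn (0.054 to 0.114). CDYL was lost with no filter (0.11) and without replicate 1 or 2 of either DMSO group, replicate 1 or 3 of WT GSK-LSD1 or replicate 3 of insR GSK-LSD1 (0.0624 to 0.134). RANBP9 was lost with no filter (0.0606) and without replicate 1 or 3 of WT DMSO, replicate 3 of WT GSK-LSD1, replicate 2 of insR DMSO or replicate 1 of insR GSK-LSD1 (0.0663 to 0.128). GFOD1 was lost without WT DMSO replicate 2 or WT GSK-LSD1 replicate 3 (0.0513 in each case), TPMT without WT GSK-LSD1 replicate 3 (0.0562) and NUP153 without insR GSK-LSD1 replicate 2 (0.052).

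Genes called of all tested in the insR response numbered 65, and 118 with no filter beyond 1 count, 25 at an adjusted p under 0.01 and 28 to 45 with a library left out in turn. Of the 62 genes 1, RIPOR2, was called in the insR response with no filter and with DESeq2. At an adjusted p under 0.01, 1896 genes were called for the difference in response in place of 3228, and 4 of the 62 with a more negative insR response in place of 9. A minimum of 20 CPM left 40 genes, of which 7 rose and 20 fell in the WT response. The share over all genes at that minimum was not computed, so these counts show no shift particular to the window. Called lower were 22.5% of all genes tested and 29.6% of protein-coding genes at 10 CPM or more. Of the 40 genes, 5 had a more negative insR response, and 35 had all insR below all WT libraries in DMSO and 26 under GSK-LSD1. Their median log2 ratio of insR to WT was -1.02 in DMSO and -0.72 under GSK-LSD1. The median over 62 genes in DMSO was -1.045 with no scaling factor and -1.028 to -0.990 with a library left out in turn. Under GSK-LSD1 it was -0.94 with upper-quartile scaling and also with no scaling factor. The median shift over all genes in that comparison was -0.048 and -0.047 under these 2 settings. Other scalings moved the median of all genes by at most 0.048 on the log2 scale. With the replicate number as a block (replicate block), 17 genes rose and 21 fell in the WT response, none was called in the insR response, and 19 and 10 had a more positive and a more negative insR response. Same-numbered libraries did not deviate together: the correlations were -0.20, 0.21 and 0.01 in WT and -0.01, 0.08 and -0.17 in insR cells, and not every library correlated best with its own number. Genes near 10 CPM rest on few counts, and small changes in them were not detectable at this depth.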

Other observations

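The 6 genes with an unadjusted p under 0.05 in the insR response, chosen after their values were seen, moved both ways. Their number is near the share over all genes, 996 of 12864. RIPOR2, SOX4, SYCP2L and BLOC1S5 were higher, with log2 changes of 0.58, 0.21, 0.42 and 0.36, and GFOD1 and GMPR were lower, with -0.28 and -0.26. Their edgeR adjusted p-values ran from 0.0561 to 0.6, so none passed. SYCP2L, a gene of the meiotic synaptonemal complex, was at 8.54, 10.1 and 9.31 CPM in insR DMSO and 10.96, 16.2 and 10.5 in insR GSK-LSD1, with no overlap between the groups. In WT cells it was at 14.4, 13.8 and 14.7 CPM in DMSO and 16.8, 16.5 and 15.6 under the drug.

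The last run of 10 neighbours, from BTN3A1 to GABBR1, had a median log2 change of 0.56 under GSK-LSD1 in WT cells and 0.09 in insR cells, the highest WT median of the 6 runs. The other 5 runs had WT medians from -0.24 to 0.15. The run was picked after its values were seen. The 21 tested genes of the whole window under 10 CPM had a WT median of 0.58, so a like median was also found among other genes of the window. The run from BTN3A1 to GABBR1 holds ABT1 and all 5 zinc finger genes, ZNF184, ZKSCAN8, ZSCAN9, ZKSCAN4 and ZKSCAN3. ABT1 went against it with a log2 change of -0.85.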
